A study of Mus musculus with 3 samples.

Results

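10 members of the Toll-like receptor (TLR) pathway were followed in mouse back skin: the receptors Tlr1, Tlr2, Tlr3, Tlr4, Tlr6 and Tlr7, the co-receptors Cd14 and Ly96, the adaptor Myd88 and the kinase Irak1. They were selected by gene symbol, as every probe set that the platform annotation assigns to 1 of these 10 genes alone, which gave 19 of the 45037 probe sets used and 10 of the 18193 genes that the array named. The arrays compared wild-type mice (WT group), interleukin-10 knockout mice (KO group) and knockout mice whose feed held 8% powdered eggshell membrane, pESM (KOE group). All mice were male. The WT mice were C57BL/6J, and both knockout groups were homozygous mice bred over successive generations from the knockout line and C57BL/6J, with heterozygous females mated to homozygous males. WT and KO mice were not described as littermates. From 4 weeks of age they ate an AIN-93-based diet, with pESM in the KOE group only, over a period of 28 weeks. There were 5 mice in the WT, 7 in the KO and 6 in the KOE group, and back skin freed of its dermal white adipose tissue gave 250 ng of pooled RNA for 1 array per group. Which mice entered each pool was not given in the sources used here. No test across mice and no p-value can be had from single arrays, so every difference below is between pools.

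TLRs are receptors of the innate immune system that recognise conserved microbial molecules and some products of damaged tissue. TLR4 binds bacterial lipopolysaccharide together with LY96 (also called MD-2), after CD14 has passed the lipopolysaccharide on. TLR2 recognises lipoproteins, as a heterodimer with TLR1 or TLR6. These receptors act at the cell surface, whereas TLR3 and TLR7 sit in endosomes and recognise RNA, double-stranded for TLR3 and single-stranded for TLR7. All of these receptors except TLR3 signal through MYD88, which recruits kinases of the IRAK family, including IRAK1, and leads to activation of the transcription factor NF-κB. In skin, keratinocytes, fibroblasts, macrophages, dendritic cells and mast cells carry TLRs. Interleukin-10 is a cytokine that restrains the output of this pathway, above all in macrophages.

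Signals were MAS5 intensities on a linear scale, each array scaled to a trimmed mean of 500. A ratio of 1.5 or more in either direction put a probe set past the cut-off, provided that 1 or both arrays of the pair gave a signal of 40 or more. The fold and signal limits are those of the study's methods, which do not say which array must reach the signal limit. The choice of 1 or both was made here, and counts with both arrays at 40 or more are given beside the main ones. With both arrays at 40 or more, 2229 probe sets were higher in KO vs. WT and 2065 in KOE vs. KO. These are near the study's own counts of higher probe sets, whereas the main rule gave 3413 and 4710. The study's counts of lower probe sets were below the 4091 and 985 found here with both arrays. The median signal of all probe sets used was highest in WT (116), lowest in KO (96.3) and 107.5 in KOE, and between 29390 and 31298 probe sets per array reached 40. Because the medians differed, scaling the arrays to a common median would add 0.27 to every KO vs. WT log2 ratio, take 0.16 from every KOE vs. KO log2 ratio and add 0.11 to every KOE vs. WT log2 ratio. The Il10 probe set read 17.0 in WT but 680 in KO and 401 in KOE, so it does not show the loss of the gene, and which part of the altered allele it binds was not tested. All 7 keratinocyte markers and all 6 fibroblast markers measured reached 40, as the tissue label requires. The tissue makeup moved with the groups: the KO pool had lower signals than WT for all 7 markers of the growing hair follicle (median log2 ratio -7.80), and for all 6 skeletal muscle and all 4 adipocyte markers it was below both other pools. All 7 hair follicle markers were also lower in KOE than in WT (median log2 ratio -9.33). The part of this makeup in the TLR values was not tested. In such bulk RNA, fewer cells of a type and less RNA per cell cannot be told apart.

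In KO vs. WT, 4 of the 19 probe sets were past the cut-off, 3 higher (all Tlr4) and 1 lower (Tlr6). This share, 21.1%, was close to that of all probe sets, of which 22.1% were past the cut-off (7.58% higher and 14.5% lower). In KOE vs. KO, 8 of the 19 were past it: Tlr6, 1 probe set of Irak1 and 1 of Tlr4 were higher, and Tlr1, Tlr7 and 3 probe sets of Tlr4 were lower. That was 42.1% of them against 14.7% of all probe sets (10.5% higher and 4.29% lower). With both arrays required to reach 40, 4 of the 8 stayed, against 6.77% of all probe sets, and 2 of the 4 in KO vs. WT, against 14.0%. In KOE vs. WT, 3 were past the cut-off, against 20.5% of all (9.76% higher and 10.7% lower). These 3 were 1 higher probe set of Tlr4 and 1 lower probe set each of Tlr7 and Irak1. With both arrays at 40 or more, that of Irak1 alone stayed, against 12.4% of all probe sets. Because both the first and the second of these comparisons use the KO array, a KO signal that is off in 1 direction moves both in opposite directions.

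Each taken at its strongest probe set by mean signal, the 10 genes fell into 3 orders. Tlr2, Tlr4, Ly96 and Myd88 read highest in KO, then KOE, then WT, although their KOE vs. WT log2 ratios were only 0.16 to 0.24. Tlr1, Tlr7 and Cd14 read highest in KO and lowest in KOE, and Tlr3, Tlr6 and Irak1 read highest in KOE and lowest in KO. The median log2 ratio of the 10 genes was 0.44 in KO vs. WT, -0.26 in KOE vs. KO and 0.18 in KOE vs. WT, beside 0.01, 0.03 and 0.06 over all 18193 genes. Only 2 genes were past the cut-off in KO vs. WT (Tlr4 higher, Tlr6 lower; 20.3% of all genes were), 5 in KOE vs. KO (Tlr6 and Irak1 higher, Tlr1, Tlr4 and Tlr7 lower; 13.0% of all genes were) and 1 in KOE vs. WT (Tlr7 lower; 18.5% of all genes were). With both arrays at 40 or more, Tlr4 alone stayed in KO vs. WT (13.9% of all genes), Tlr4 and Irak1 in KOE vs. KO (6.73%) and none in KOE vs. WT (12.0%). The plot of all signals shows how unequal the basis of these values is: 12 of the 19 probe sets reached 40 in all 3 arrays, whereas 2 reached it in no array and 2 in only 1.

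**Figure D1:**
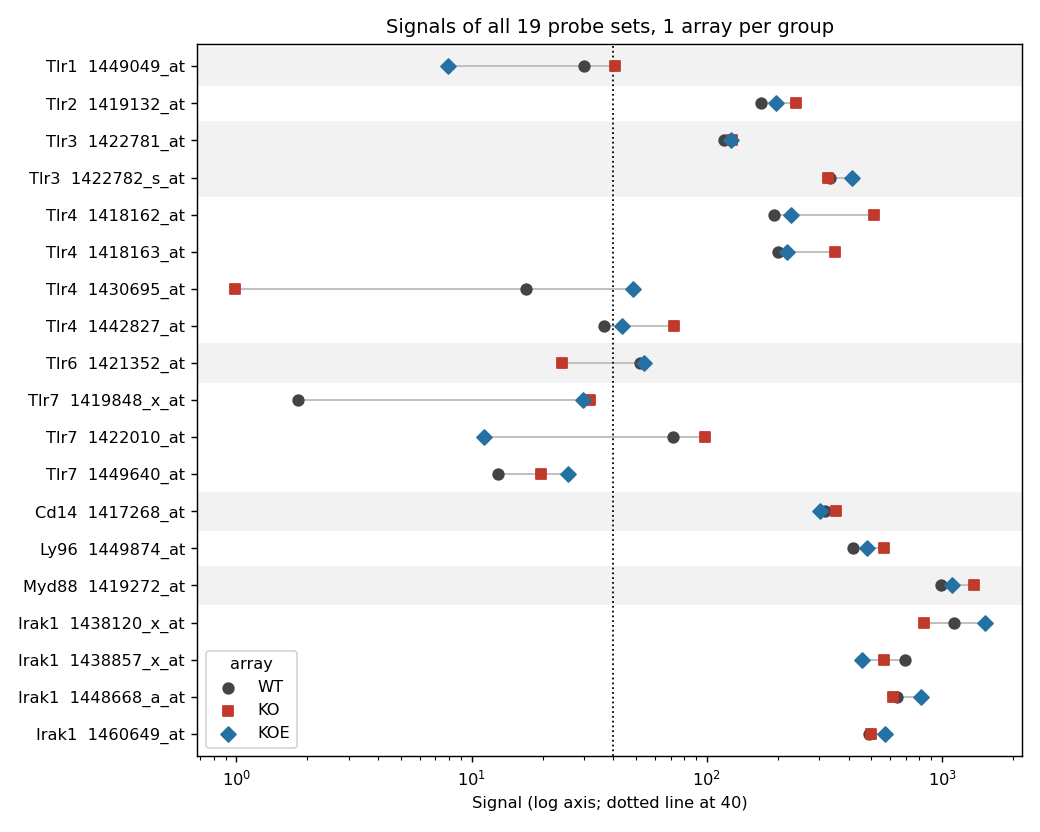
Signals of all 19 probe sets in the WT (circles), KO (squares) and KOE (diamonds) arrays, on a log axis with no unit, with a dotted line at 40. The 2 probe sets of Tlr4 with the strongest signals and Tlr2, Ly96 and Myd88 lie to the right of the line with KO highest, while Tlr1, Tlr6, Tlr7 and Tlr4 1430695_at cross the line or lie left of it.

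The largest difference among probe sets well above the limit was that of Tlr4, the lipopolysaccharide receptor. Its strongest probe set, 1418162_at, read 193 in WT, 512 in KO and 228 in KOE. KO stood apart from the other two pools, which differed from each other by a ratio of 1.18. The KO signal was 2.65 times the WT signal (log2 ratio 1.41), and the KOE signal was 0.445 times the KO signal (log2 ratio -1.17). Of the probe sets with 40 or more in at least 1 array of the pair, 2.36% had a KO vs. WT ratio at least as high, and 1.85% had a KOE vs. KO ratio at least as low. Probe set 1418163_at, from the same deposited transcript, read 200.2, 350.2 and 220 in the same order, and 1442827_at, from an expressed sequence tag, read 36.6, 72.4 and 43.5. Both gave the same order of the pools, with KO vs. WT ratios of 1.75 and 1.98 and KOE vs. KO ratios of 0.628 and 0.600. The fourth probe set, 1430695_at, ran the other way, with 17.0 in WT, 0.985 in KO and 48.4 in KOE. Its signal reached 40 in the KOE array alone, and its KOE vs. KO ratio of 49.2 rests on a KO signal near 0, so its size cannot be read as a fold difference.

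How far the probe sets of 1 gene scatter gave a yardstick of spread, although it covers neither differences between mice nor the making of the pools. This yardstick was taken over genes with several probe sets at 40 or more in both arrays of the pair. The SD of the log2 ratio between probe sets of the same gene was 0.33 in KO vs. WT and 0.26 in KOE vs. KO at mean signals of 200 to 1000. The log2 ratios of Tlr4 1418162_at were beyond this spread, and those of Tlr2, Cd14 and Ly96 were within 2 such SDs of 0. In KOE vs. KO, Irak1 1438120_x_at (0.86 against an SD of 0.19 at its signal) was beyond it too. So was Tlr7 1422010_at (-3.12 against 0.39), but its KOE signal was under 40, outside the signals that gave the SD. Other probe sets of Irak1 and Tlr7 did not share those values, so a value beyond the spread need not hold for the gene. At mean signals of 40 to 200 the SD was 0.46 and 0.39. Of all probe sets in that range, also those under 40 in 1 array, 40.4% were past the cut-off in KO vs. WT. In KOE vs. WT, Tlr2 was at 0.21 (SD 0.44 at its signal) and Tlr4 1418162_at at 0.24 (SD 0.31). Ly96 was at 0.20 (SD 0.31) and Myd88 at 0.16 (SD 0.23). All were within 1 SD of 0, so KOE and WT were not told apart for these genes. The mean log2 ratio of Tlr4 over its 4 probe sets was -0.23 in KO vs. WT and 0.76 in KOE vs. KO, opposite in sign to the strongest probe set, because of 1430695_at alone. Over the 3 probe sets that reached 40 in at least 2 arrays, it was 1.07 and -0.86.

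**Figure D2:**
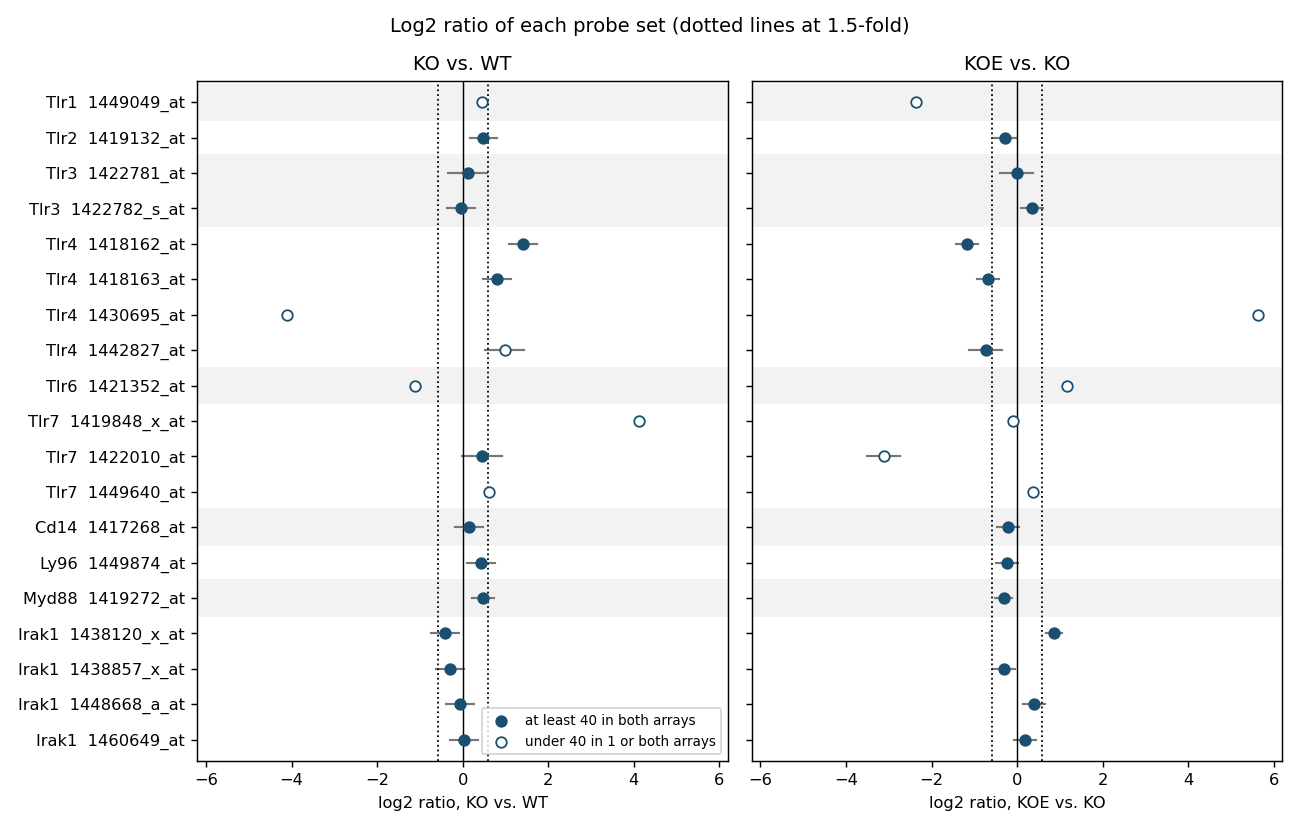
Log2 ratios of the 19 probe sets in KO vs. WT (left) and KOE vs. KO (right), filled where both arrays reached 40, with bars of 1 SD either way, the spread between probe sets of 1 gene at that mean signal (no bar under 40) and dotted lines at 1.5-fold. All probe sets of Tlr4 but 1 lie right of 0 on the left and left of 0 on the right, and that 1, 1430695_at, lies far on the other side in both.

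Tlr2, which pairs with TLR1 or TLR6, read 170 in WT, 238 in KO and 197 in KOE on its only probe set. KO was highest and WT lowest, as for Tlr4, but the steps were smaller. The KO vs. WT ratio was 1.40 (log2 ratio 0.49), under the cut-off, and the KOE vs. KO ratio was 0.826 (log2 ratio -0.28). The partners Tlr1 and Tlr6 lay near the detection limit and moved in opposite directions. Tlr1 read 29.9, 40.8 and 7.93 in WT, KO and KOE, reaching 40 in KO alone. Its KOE vs. KO log2 ratio was -2.36 as deposited and -0.03 with signals under 40 set to 40. Tlr6 read 52.2 in WT, 24.1 in KO and 53.9 in KOE, lowest in KO and nearly equal in the other pools. Its ratios were 0.462 in KO vs. WT and 2.23 in KOE vs. KO, but with signals under 40 set to 40 the log2 ratios of -1.11 and 1.16 shrank to -0.38 and 0.43, under the cut-off. No shared direction of the TLR2 heterodimer partners was therefore seen in these arrays.

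Of the RNA-sensing receptors, Tlr3 differed little between the pools. Its probe set 1422782_s_at read 335, 326 and 415 in WT, KO and KOE, and 1422781_at read 118, 128 and 127. The KO vs. WT ratios were 0.975 and 1.09, on either side of 1, and the KOE vs. KO ratios were 1.27 and 0.991. All 4 were under the cut-off, and the sign of the KO vs. WT value at the stronger probe set turned from -0.04 as deposited to 0.23 with a common median, 0.09 with quantile and 0.04 with loess normalization. Tlr7 had 1 probe set of use, 1422010_at, which read 71.6 in WT, 97.8 in KO and 11.2 in KOE. The KOE pool was far below both others, 8.71-fold under KO (log2 ratio -3.12) and 6.37-fold under WT, from a signal that was itself under 40. With signals under 40 set to 40 the log2 ratio was -1.29 in KOE vs. KO and -0.84 in KOE vs. WT (1.79-fold under WT), both still past the cut-off. Its other probe sets, 1419848_x_at (1.82, 31.7 and 29.8) and 1449640_at (12.9, 19.8 and 25.6), reached 40 in no array and did not show a low KOE value, so the difference rests on a single probe set.

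The co-receptors of TLR4 showed smaller differences than Tlr4 itself. Ly96, whose product binds lipopolysaccharide in the TLR4 complex, read 417, 564 and 478 in WT, KO and KOE. Its order of pools was that of Tlr4, with a KO vs. WT ratio of 1.35 (log2 ratio 0.44) and a KOE vs. KO ratio of 0.847 (log2 ratio -0.24). The KOE vs. KO value was within 1 SD (0.26) of the spread between probe sets of 1 gene, so KOE and KO were not told apart. Cd14, which hands lipopolysaccharide to the complex, read 318 in WT, 352 in KO and 302 in KOE. Its ratios of 1.11 and 0.859 were within 1 SD of the spread between probe sets of 1 gene at this signal, so its levels in the 3 pools were not told apart. The sign of its KOE vs. WT log2 ratio turned with the scaling.

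Myd88, the adaptor shared by most of these receptors, read 984 in WT, 1363 in KO and 1096 in KOE on its single probe set. The KO pool was again highest and the KOE pool lay nearer to WT than to KO. The KO vs. WT ratio was 1.39 (log2 ratio 0.47) and the KOE vs. KO ratio 0.804 (log2 ratio -0.31). At a mean signal of 1000 or more, the SD between probe sets of 1 gene was 0.26 in KO vs. WT and 0.19 in KOE vs. KO, so both values were between 1 and 2 SDs from 0. Irak1, the kinase recruited by MYD88, had 4 probe sets that disagreed. Its strongest, 1438120_x_at, read 1119, 835 and 1519 in WT, KO and KOE, and was past the cut-off in KOE vs. KO (ratio 1.82, log2 ratio 0.86). The next, 1438857_x_at, read 694, 566 and 454 and was past the cut-off in KOE vs. WT, in the lower direction (ratio 0.654). The other two, 1448668_a_at (643, 620 and 809) and 1460649_at (488, 499.8 and 570.1), were past it nowhere. Over all 4 probe sets the mean KOE vs. KO log2 ratio of Irak1 was 0.28 with an SD of 0.49, so no direction could be given for this gene. The suffix of the first pair marks probe sets whose probes can bind other transcripts.

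Promoter sequence from RefSeq (build GRCm38.p6) was at hand for 6 of the 10 genes. Those of Tlr2 and Myd88 are printed because they are the genes with the order KO, KOE, WT that the table holds. KOE and WT were not told apart in either gene. Each runs from 250 bases before to 10 bases after the annotated start, on the minus strand, at chr3:83841599-83841858 for Tlr2 and chr9:119340009-119340268 for Myd88. Capitals mark matches to the NF-κB motif in Tlr2 and to GAAANNGAAA, the core letters of the interferon-stimulated response element, in Myd88.
Tlr2: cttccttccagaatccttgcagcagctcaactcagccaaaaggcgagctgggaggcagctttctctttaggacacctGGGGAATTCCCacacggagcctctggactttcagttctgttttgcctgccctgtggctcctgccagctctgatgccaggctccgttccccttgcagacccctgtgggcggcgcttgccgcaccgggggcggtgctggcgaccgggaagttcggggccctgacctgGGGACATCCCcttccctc
Myd88: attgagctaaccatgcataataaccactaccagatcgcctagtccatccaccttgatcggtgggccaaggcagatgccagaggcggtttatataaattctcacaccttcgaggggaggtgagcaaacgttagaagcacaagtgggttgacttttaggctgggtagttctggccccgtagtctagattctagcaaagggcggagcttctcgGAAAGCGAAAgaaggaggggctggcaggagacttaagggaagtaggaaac
Both strands were searched in windows of 300 bases, and overlapping matches were merged. The NF-κB motif was found at Tlr2 and Tlr3, and in 4.51% of 32851 promoters. The response element letters were found at Tlr6 and Myd88, and in 3.44% of them. A match is a description of the letters and not of a bound site.

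The scaling of the arrays decided how many of the 10 genes were higher in KO than in WT. As deposited, Tlr1, Tlr2, Tlr7, Ly96 and Myd88 lay together just under the cut-off, with log2 ratios between 0.44 and 0.49. With a common median they were 0.72, 0.76, 0.72, 0.71 and 0.74, all past the cut-off, beside 1.68 for Tlr4. With quantile normalization Tlr1, Tlr2 and Tlr7 were past it (0.63, 0.70 and 0.69), and Ly96 and Myd88 were not. With loess normalization the same was seen, with 0.63, 0.64 and 0.66 for Tlr1, Tlr2 and Tlr7. Tlr1 lay near the signal limit, and with signals under 40 set to 40 its KO vs. WT log2 ratio was 0.03. The counts over the 19 probe sets were 9, 7 and 7 against 4 as deposited, while the share of all probe sets past the cut-off was 24.7%, 21.5% and 20.8% against 22.1%. Over all probe sets past the cut-off in KO vs. WT, 34.3% were higher as deposited, 63.8% with a common median, 51.5% with quantile and 46.6% with loess normalization. In KOE vs. KO the same share went from 70.9% to 51.3%, 50.0% and 49.6%, and in KOE vs. WT from 47.7% to 60.2%, 51.7% and 45.1%. Tlr4 was past the cut-off under all 4 scalings in both KO vs. WT (1.41 to 1.68) and KOE vs. KO (-1.33 to -1.17), as was Tlr6 in both. Tlr6 read under 40 in KO, however, and fell short of the cut-off in both with 40 added to every signal (-0.52 and 0.55). It also fell short with signals under 40 set to 40 (-0.38 and 0.43).

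**Figure D3:**
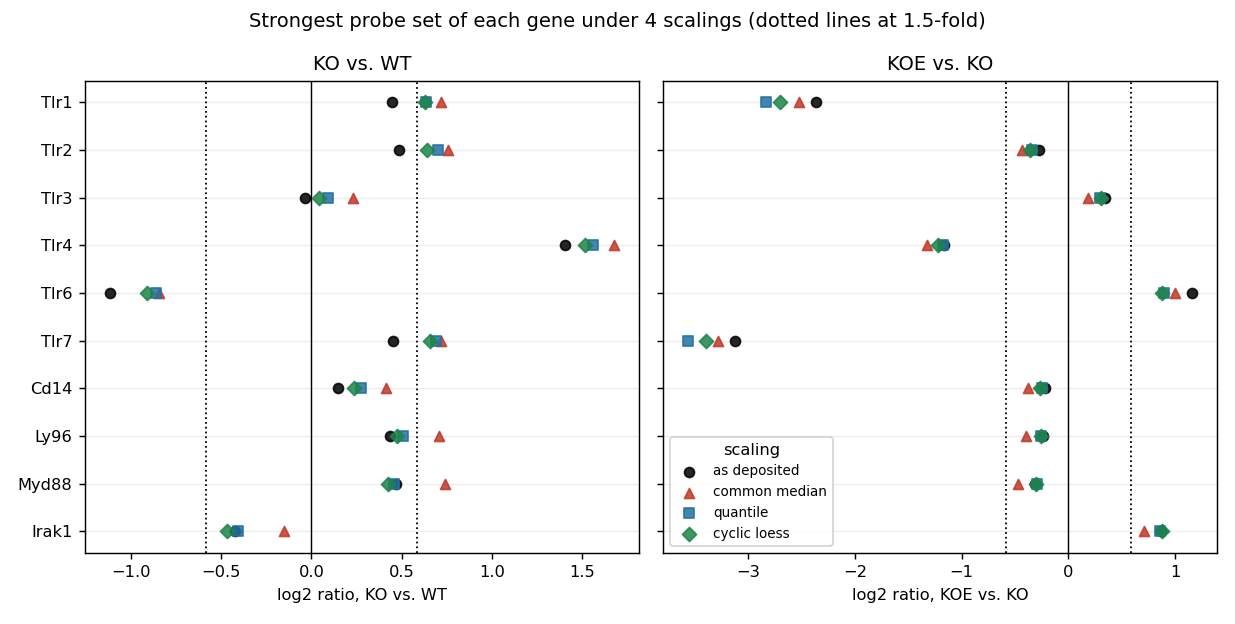
Log2 ratio of the strongest probe set of each of the 10 genes in KO vs. WT (left) and KOE vs. KO (right; the axes differ in range) as deposited and under 3 other scalings, with dotted lines at 1.5-fold. In KO vs. WT, Tlr1, Tlr2 and Tlr7 cross the right line with each of the other scalings and Ly96 and Myd88 with the common median only, while Tlr4 and Tlr6 stay outside the lines throughout. The KO signal of Tlr6 was under 40.

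The rest of the pathway was described with 7 lists, of which 89 of 101 genes were measured, each counted at its strongest probe set. In KO vs. WT, 22 of the 89 were higher past the cut-off and 5 lower (median log2 ratio 0.17), beside 8.70% higher and 11.6% lower of all genes. In KOE vs. KO, 4 were higher and 11 lower (median -0.05), beside 8.71% and 4.28% of all genes. In KOE vs. WT, 16 were higher and 6 lower (median 0.22), beside 10.1% and 8.48%. Scaling moved these counts too. With a common median, 33 of the 89 were higher and 5 lower in KO vs. WT, where 24.7% of all probe sets were past the cut-off. These counts were not split by list.

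Upstream of the adaptors few of these genes were past the cut-off in KO vs. WT as deposited, and none higher. Of the 5 other TLRs none was, and 3 of them reached 40 in WT or KO. Tlr5, the flagellin receptor, read 143 in WT, 144 in KO and 171 in KOE. Tlr8 read 35.5, 52.5 and 33.3, just under the cut-off in KO vs. WT (ratio 1.48). It was lower in KOE than in KO (ratio 0.634), but reached 40 in KO alone. Tlr13, a receptor for bacterial ribosomal RNA, read 49.6, 38.9 and 11.4. Of 10 ligand carriers, chaperones and accessory receptors, none was higher in KO vs. WT and 2 were lower (median -0.30). They were Cd180, a TLR-like receptor of B cells and myeloid cells, at 103, 55.2 and 75.8, and Tril, a co-receptor of TLR4 and TLR3, at 358, 156 and 237 on its strongest probe set. The other Tril probe set read 198, 166 and 240 and was not past the cut-off (KO vs. WT ratio 0.839). Hsp90b1, the chaperone that folds most TLRs, read 9515, 7799 and 8527, and Cd36, a scavenger receptor that can assist TLR2, read 3894, 4301 and 4202. Of the 4 other adaptors none was past the cut-off in either KO vs. WT or KOE vs. KO. Tirap, which bridges TLR4 or TLR2 to MYD88, read 342, 244 and 312, Ticam1, the adaptor of TLR3, read 178, 151 and 191, and Sarm1, a further TIR-domain adaptor, read 67.6, 100.4 and 136. The KO vs. WT ratio of Sarm1, 1.48, was just under the cut-off.

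In the lists of kinases, inhibitors, transcription factors and targets, more genes were higher in KO vs. WT as deposited. Of 16 other kinases, ligases and scaffolds, 4 were higher and none lower in KO vs. WT (Irak2, Traf6, Peli2 and Map3k8), and none was past the cut-off in KOE vs. KO. Over all genes, 8.70% were higher and 11.6% lower in KO vs. WT, and 8.71% and 4.28% in KOE vs. KO. The kinase Irak2 read 271 in WT, 471 in KO and 452 in KOE (KO vs. WT ratio 1.74), and the kinase Map3k8 read 368, 650.4 and 513 (ratio 1.77). The 2 genes of this list with the strongest signals, Tab2 (3265, 3319 and 3432) and Peli1 (2793, 2637 and 2430.3), were near a ratio of 1 on those probe sets. Of 15 inhibitors of the pathway, 5 were higher and none lower in KO vs. WT (Irak3, Sigirr, Tnfaip3, Nfkbia and Nfkbib), and 1, Socs1, was lower in KOE vs. KO. Nfkbia, the inhibitor that holds NF-κB in the cytoplasm and is itself induced by it, read 7915, 15063 and 13699 (ratio 1.90). Tnfaip3, a ubiquitin-editing inhibitor also called A20, read 677, 1377 and 946 (ratio 2.03 in KO vs. WT, 0.687 in KOE vs. KO), and Tollip read 1989.8, 2857 and 2660 (ratio 1.44, under the cut-off). The weaker probe set of Tollip read 324, 531 and 491 and was past it (ratio 1.64).

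Of 15 transcription factors, 6 were higher and none lower (Relb, Rel, Fos, Atf3, Cebpd and Nfkbiz; median 0.53), and 4 of these 6 (Fos, Atf3, Cebpd and Nfkbiz) were lower in KOE than in KO. Atf3 read 207 in WT, 1573 in KO and 715 in KOE (ratio 7.59 in KO vs. WT), and Cebpd read 1090.2, 5134 and 2511 (ratio 4.71). Fos read 4756, 8737 and 4876, whereas Cebpb differed little on its strongest probe set (8046, 8054 and 8196) and was higher in KO on its other one (2205, 3101 and 2814, KO vs. WT ratio 1.41, under the cut-off). Atf3 and Fos are immediate early genes that many stimuli induce besides TLR ligands. Of 24 target cytokines and mediators, 7 were higher (Tnf, Il1a, Il1b, Il6, Ptgs2, Sele and Lcn2) and 3 lower (Cxcl10, Ccl4 and Saa3) in KO vs. WT, with only 15 reaching 40. These counts and those of the transcription factors stand beside 8.70% higher and 11.6% lower of all genes. The median of all 24 was 0.74, and 0.11 with signals under 40 set to 40, while that of the 15 reaching 40 was 0.50. Lcn2, an antibacterial iron-chelate binding protein, read 209, 1282 and 741 (ratio 6.15), Ptgs2, the inducible cyclooxygenase, read 39.2, 291 and 83.6, and the adhesion molecule Icam1 read 634, 865 and 845. In KOE vs. KO, 3 targets were higher (Cxcl10, Ccl4 and Ccl5) and 5 lower (Il1b, Il6, Ptgs2, Lcn2 and Saa3).

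**Figure D4:**
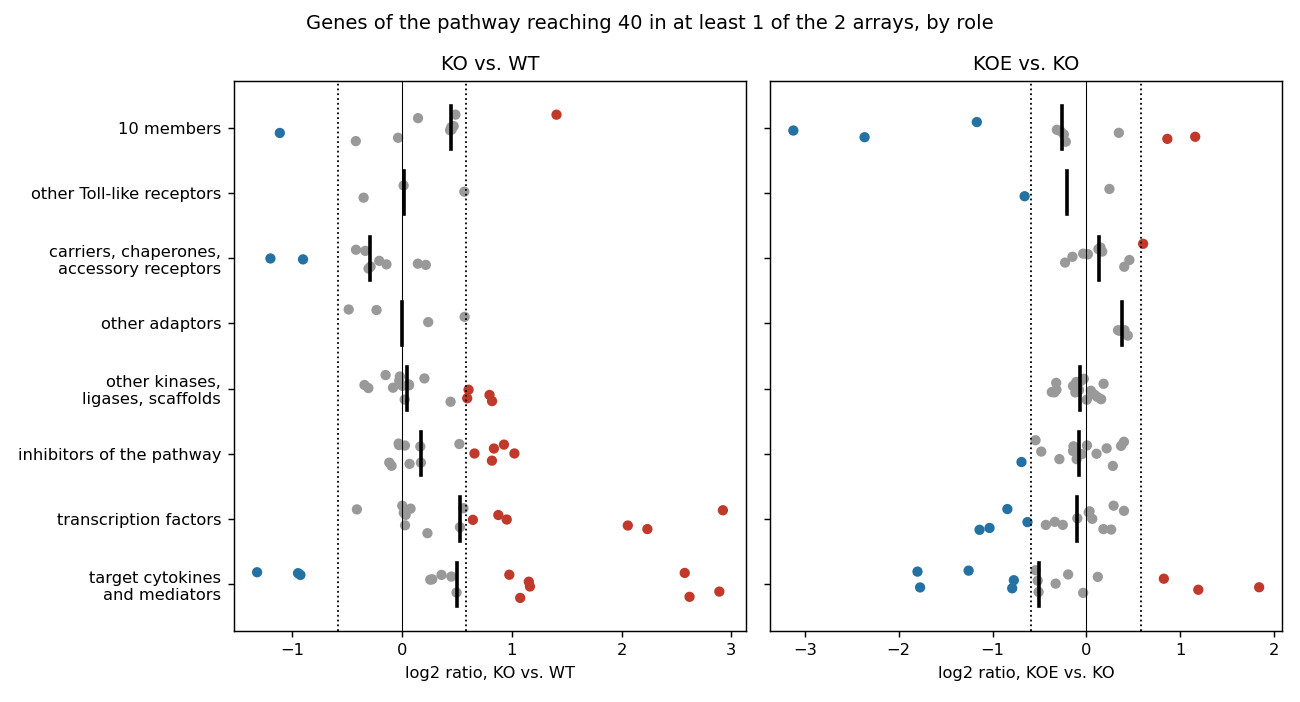
Log2 ratios of the measured genes of each list that reached 40 in at least 1 array of the pair, in KO vs. WT and KOE vs. KO (the axes differ in range), with genes higher past the cut-off in red, lower in blue and the others in grey, and a black bar at the median. The transcription factors and inhibitors have genes on the right of the cut-off and none on the left in KO vs. WT.

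Markers of immune cells were counted in the same way, beside all genes, of which 8.70% were higher and 11.6% lower in KO vs. WT. In KOE vs. KO these shares were 8.71% and 4.28%. None of 10 macrophage markers was past the cut-off in KO vs. WT (median log2 ratio 0.23, ratios from 0.803 for Fcgr1 to 1.47 for Cd163). Their summed signal was 14665 in WT and 17159 in KO. In KOE vs. KO, Tlr1 (at 40 or more in KO alone), Tlr4 and Tlr7 were lower, and Tlr6 and Irak1 were higher. There 5 of the 10 macrophage markers were lower (C1qa, C1qb, C1qc, Mrc1 and Cd163, median -0.55), and the summed signal was 11300 in KOE. In KOE vs. WT, 3 of the 10 were lower (Mrc1, Cd163 and Fcgr1), beside 8.48% of all genes. Of 7 mast cell markers, 3 were higher and 1 lower in KO vs. WT, and 4 were lower in KOE vs. KO, where the summed signals were 2043, 3043 and 1686 in WT, KO and KOE. Of 5 neutrophil markers, 2 were higher in KO vs. WT and 2 lower in KOE vs. KO (summed signals 1421, 1625 and 901). Of 7 monocyte and dendritic cell markers, none was higher and 1 lower in KO vs. WT, and 3 were higher in KOE vs. KO (summed signals 14868, 13694 and 16209). Of 6 T and NK cell markers, 1 was higher in KO vs. WT and none was past the cut-off in KOE vs. KO. Of 4 B and plasma cell markers, none was past it in KO vs. WT and 1 was higher in KOE vs. KO. Of 3 Langerhans cell markers, 1 was lower in each of these comparisons. All macrophage markers reached 40 in all 3 arrays. The part of these cells in the TLR differences was not tested.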

How the data were processed

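Back-skin RNA of each group was pooled and hybridised by the authors to 1 Affymetrix mouse array. The deposited values are MAS5 signal intensities on a linear scale, each array scaled to a 2% trimmed mean of 500. Ratios of these intensities were computed with Python 3.11.15 (numpy 2.4.6, pandas 2.3.3) and drawn with matplotlib 3.10.9. Quantile and cyclic loess normalization (span 0.7, 3 iterations) used limma 3.58.1 in R 4.3.3. No test was run, since each group had 1 array, and depth does not apply to arrays, whose number limits the precision. The counting was tested on simulated data.

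Of 45101 probe sets, 64 controls were left out. The platform annotation gave 1 gene to 34945 probe sets, several to 932 and none to 9160, and 34741 were matched by identifier to current RefSeq symbols. For each gene the probe set strongest on average over the 3 arrays was used, and all probe sets of the 10 genes are given. Named genes were these 10, Il10 and, of each other list, the 2 with the strongest signals and the 2 with the largest KO vs. WT ratio in either direction. Genes counted past the cut-off in a list or belonging to a marker list are also named. The members and lists were chosen with earlier results of these data known. The alternatives were other signal and fold limits, scalings, an offset or floor of 40, and other choices of probe sets. The mean over probe sets reaching 40 in at least 2 arrays was added after seeing the data.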

Additional observations from a re-analysis of the deposited data

How the results depend on the processing

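No paired analysis was possible because each group had 1 array, and for the same reason no replicate could be left out. In KO vs. WT, the count of probe sets past the cut-off among the 19 went from 4 (22.1% of all probe sets) to 2 with both arrays required to reach 40 (14.0%), a signal limit of 100 (13.3%), a fold limit of 2 (10.6%) or 40 added to every signal (14.8%), to 9 with a common median (24.7%), and to 7 with quantile (21.5%) or loess (20.8%) normalization. In KOE vs. KO it went from 8 (14.7%) to 4 with both arrays at 40 (6.77%), 3 with a limit of 100 (5.30%) and 5 with a fold limit of 2 (6.78%). In KOE vs. WT it went from 3 (20.5%) to 1 with both arrays at 40 (12.4%) or a limit of 100 (11.4%). With a fold limit of 2, the count among the 89 other pathway genes went from 27 to 12 in KO vs. WT. It went from 15 to 7 in KOE vs. KO and from 22 to 12 in KOE vs. WT. At that limit 10.6%, 6.78% and 9.37% of all probe sets were past the cut-off in these comparisons, shares of probe sets and not of genes. The mean over all probe sets, or over those reaching 40 in at least 1 array, turned Tlr4 to a log2 ratio of -0.23 in KO vs. WT and 0.76 in KOE vs. KO, where 1430695_at decides the mean. The mean over all 3 probe sets turned Tlr7 to 0.78 in KOE vs. WT, where those that reached 40 in no array decide it. Of the other values of single genes, 151 kept their direction and side of the cut-off, 11 crossed to past it, 9 fell short of it and 10 moved otherwise. Signals under 40 limit Tlr1, Tlr6 and Tlr7, and differences between mice cannot be assessed.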
